A study of Homo sapiens with 6 samples.

Results

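The glutathione genes followed here were 10 genes, chosen by name: the glutathione peroxidases GPX1, GPX2, GPX3, GPX4, GPX7 and GPX8, the synthesis enzyme GSS, the reductase GSR and the glutathione-degrading enzymes CHAC2 and GGT1. All 10 were matched through their Ensembl identifiers among the 61496 features of the deposited tables. They were measured in U251, an established human glioma cell line, in 3 libraries of untreated control cells and 3 libraries of cells exposed to sevoflurane (Sev), a volatile anesthetic, for 2 h. The protocol names Sev gas at 1.7%, 3.4% and 5.1%, the labels give no library its own concentration, and the study's figure legend gives 5.1% for the sequenced cells. All cells were grown in DMEM with serum, and the controls carried no labelled treatment. No label says that the libraries of a group came from separate cultures, so p-values measure the spread between these libraries, which may be technical.

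Glutathione is a tripeptide of glutamate, cysteine and glycine that serves as the main thiol reductant of the cell. Glutathione peroxidases spend it to reduce hydrogen peroxide and lipid peroxides, and glutathione reductase returns the oxidized form with NADPH. GPX4 is the family member that reduces peroxidized phospholipids in membranes, and it is the enzyme whose loss defines sensitivity to ferroptosis, an iron-dependent form of cell death.

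The 6 peroxidase genes differ in the codon of their catalytic residue, which is the feature that ties some of them to selenium. The following stretches were read from GENCODE 29 coding transcripts, with 30 bases on either side of the catalytic codon in capitals.
GPX1: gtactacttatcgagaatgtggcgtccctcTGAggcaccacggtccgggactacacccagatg
GPX2: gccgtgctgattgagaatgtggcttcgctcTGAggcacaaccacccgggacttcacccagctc
GPX3: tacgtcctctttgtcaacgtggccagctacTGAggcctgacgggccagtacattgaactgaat
GPX4: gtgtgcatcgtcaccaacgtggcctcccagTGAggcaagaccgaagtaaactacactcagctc
GPX7: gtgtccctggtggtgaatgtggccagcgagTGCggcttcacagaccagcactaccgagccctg
GPX8: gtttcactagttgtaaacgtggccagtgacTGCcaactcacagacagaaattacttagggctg
In GPX1, GPX2, GPX3 and GPX4 this codon is an in-frame TGA, which selenoprotein mRNAs read as selenocysteine. In GPX7 and GPX8 it is TGC, a cysteine codon. The windows of GPX1 and GPX2 shared 48 of 63 bases, and those of GPX7 and GPX8 shared 42 of 63. The GPX2 and GPX8 windows were the least alike of the 15 pairs, with 26 of 63 bases.

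The libraries held between 38624292 and 46318311 counts, and the 10 most abundant features took 8.62% to 10.3% of a library. Replicates of a group differed by more than sampling noise, so no library was a second copy of another. VIM, NES, SOX2, GFAP and CD44, markers of glial and glioma cells, had at least 6475 counts in every library, S100B had 389 to 1206, and OLIG2 had only 17 to 115. Of the 3 immune markers, AIF1 was at 0 in all 6 libraries and PTPRC had at most 12 counts, while CD68 had 88 to 198 counts (log2 fold change 0.67, adjusted p = 0.111). Of the glial markers SOX2, S100B and OLIG2 fell and CD44 rose in Sev-treated cells, with log2 fold changes of -0.72, -1.10, -1.99 and 0.97. VIM (0.17), NES (0.046) and GFAP (0.029) were not called (adjusted p not below 0.05). Of the neuronal and endothelial markers SYT1 (0.55) and PECAM1 (0.92, 21 to 55 counts) rose. RBFOX3 (-0.20), SNAP25 (0.35), VWF (0.039) and CDH5 (-0.077) were not called. Across all tested features 43.7% were called in either direction. The part of these markers in the results was not tested. On the principal component after the one that separated the treatments, which held 10% of the variance, Sev replicate 2 (score 61.5) and Sev replicate 3 (score -52.4) lay farthest apart. Several of the 10 genes differed most between these Sev libraries, and values without Sev replicate 2 are given for several of them. Relative to TMM, scaling by library size only moved the median log2 fold change of all tested features by -0.14.

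In Sev-treated cells the mRNA of GGT1 rose and the mRNAs of GPX2 and GPX3 fell, while GPX4 showed no difference beyond the replicate error. GPX7 did not pass the expression filter, and 9 of the 10 genes were tested with edgeR's quasi-likelihood test, 3 libraries against 3. At an adjusted p-value (Benjamini-Hochberg, over all tested features) below 0.05, 1 of the 9 was higher and 2 were lower. Of all 27514 tested features, 43.7% were called in either direction, 22.1% higher and 21.5% lower, so 3 of 9 is no larger a share than the background. Among tested features with a mean count of at least 100 the share was 49%. The study's own limits were an absolute log2 fold change above 1 and an unadjusted p-value below 0.05. In the test used here only GGT1 met both, against 23.5% of all tested features and 11.4% in the upward direction. This changed with the setting. GGT1 was below the log2 limit without control replicate 3 (0.97), without Sev replicate 3 (0.91) and on the FPKM scale (0.42 to 0.85), and GPX2 was past it with library size only (-1.02) and without Sev replicate 3 (-1.10). The groups did not overlap for 4 of the 9 genes, 2 above and 2 below, against 56.5% of all tested features. With library size only, GGT1, GPX2 and GPX3 were again the called genes, while the calls over all features shifted from 6094 higher and 5920 lower to 4665 higher and 7502 lower. The median log2 fold change was -0.045 over the 9 genes and -0.0056 over all tested features.

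**Figure D1:**
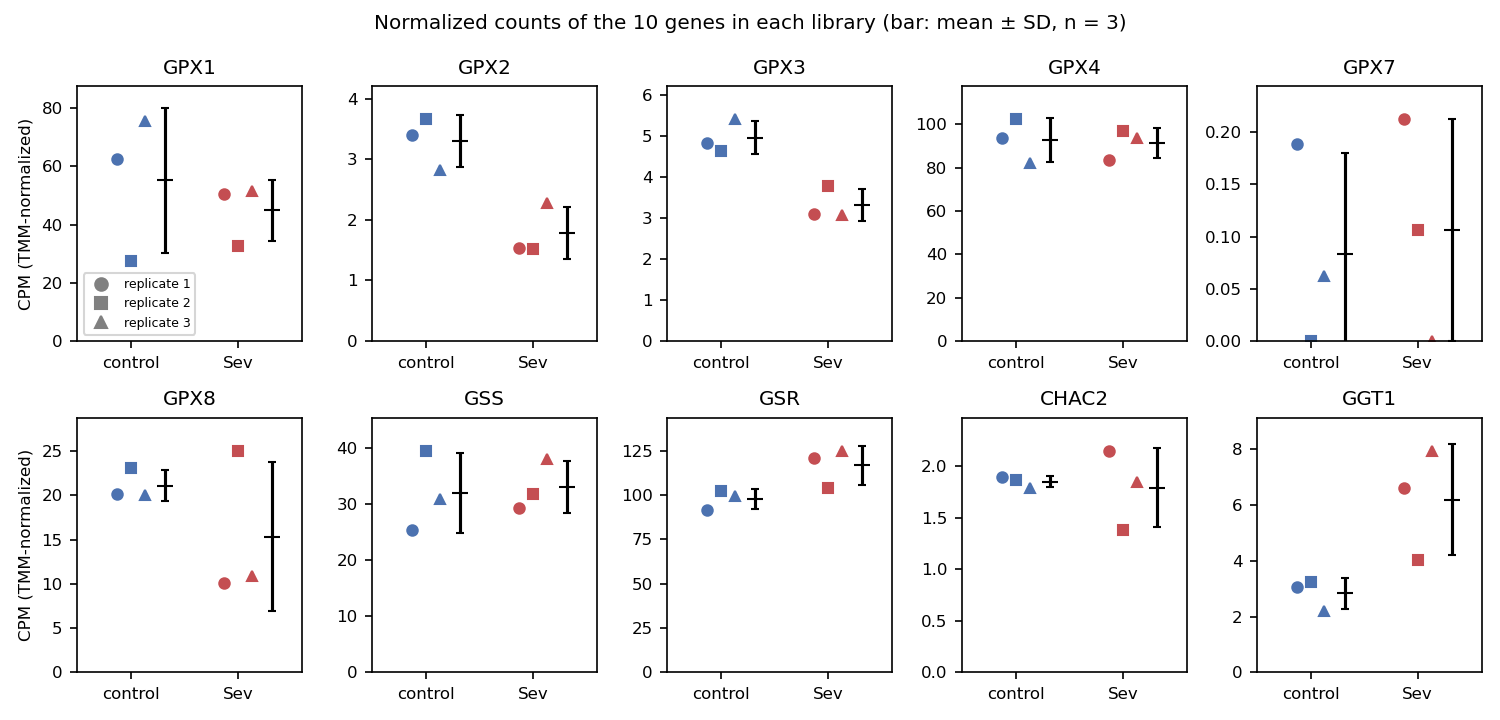
Normalized counts (CPM, linear axis from 0) of the 10 genes in each of the 3 control (blue) and 3 Sev (red) libraries, with marker shape for the replicate number and a black bar for the mean ± SD (n = 3, cut at 0 for GPX7). The Sev libraries lay below all controls for GPX2 and GPX3 and above all controls for GSR and GGT1, and GPX8 was at 25.0 CPM in Sev replicate 2 against 10.1 and 10.9 in the other Sev libraries.

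GPX4 (ENSG00000167468, chromosome 19, 1103926 to 1106791) and GPX1 (ENSG00000233276, chromosome 3, 49357171 to 49358600, GRCh38) supplied most of the peroxidase transcript. Per transcript length, GPX4 made up between 36.2% and 61.0% of the summed FPKM of the 6 peroxidase genes in control cells and between 46.9% and 57.3% in Sev-treated cells. The share of GPX1 was between 27.6% and 56.3% in control cells and between 32.7% and 48.0% in Sev-treated cells. The groups overlapped for both shares. The summed FPKM of the 6 genes was between 69.8 and 96.0 in the control libraries and between 62.7 and 75.7 in the Sev libraries, which also overlapped.

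GPX4 was at 93.8, 102 and 82.3 CPM in the control libraries and at 83.7, 97.1 and 93.7 CPM in the Sev libraries. These values interleaved, and the 95% interval of the log2 fold change ran from -0.26 to 0.22 around -0.021 (standard error 0.10, adjusted p = 0.89). The counts measure mRNA and not the amount of GPX4 protein.

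GPX1, the abundant cytosolic and mitochondrial peroxidase that reduces hydrogen peroxide, varied most among the control libraries. It was at 62.6, 27.3 and 75.5 CPM in the control libraries and at 50.5, 32.7 and 51.4 CPM in the Sev libraries. Replicate 2 was the lowest of its group both in control and in Sev cells. The coefficient of variation of GPX1 in the control libraries, 45.3%, was larger than that of 97.7% of the 15601 tested features with a mean count of at least 100. The log2 fold change was -0.30 (standard error 0.35, 95% interval -1.10 to 0.50, adjusted p = 0.515), so neither a fall nor a rise of moderate size could be told from the replicate spread. It was -0.63 without control replicate 2 (adjusted p = 0.0524) and -0.0090 without control replicate 3 (adjusted p = 0.987). Without Sev replicate 2 it was -0.11 (adjusted p = 0.837). GENCODE 29 lists the gene as a polymorphic pseudogene although its transcript is typed protein-coding, and the processed copy GPX1P1 had 17 to 51 counts, at most 3.30% of the counts summed over GPX1 and its copies. The log2 ratio of GPX1 to GPX4, which does not depend on the scaling of the libraries, was -0.87 ± 0.93 (SD, n = 3) in control and -1.05 ± 0.45 (SD, n = 3) in Sev cells. The difference of -0.18 turned to 0.074 without Sev replicate 2 and to 0.19 without control replicate 3. The exact two-sided permutation test over the libraries gave p = 0.8 (adjusted p = 0.8 over 2 pairs), where 3 libraries against 3 cannot go below 0.1.

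GPX2 (ENSG00000176153, chromosome 14, 64939152 to 64942905, minus strand), best known as the peroxidase of the gastrointestinal epithelium, was lower in Sev-treated cells. It was at 3.40, 3.66 and 2.82 CPM in the control libraries and at 1.54, 1.52 and 2.27 CPM in the Sev libraries, from 57 to 145 counts. Every Sev library was below every control library. The mean fell from 3.30 ± 0.429 to 1.78 ± 0.429 CPM (SD, n = 3), a log2 fold change of -0.89 (standard error 0.23, 95% interval -1.41 to -0.37, adjusted p = 0.0148). The call was lost without Sev replicate 1 (log2 fold change -0.79, adjusted p = 0.0574) and kept when any of the other 5 libraries was left out. CHURC1 and CHURC1-FNTB run across GPX2 on the opposite strand, with 0 exonic bases shared.

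GPX3 (ENSG00000211445, chromosome 5, 151020438 to 151028993), the secreted peroxidase of blood plasma, also fell. It was at 4.85, 4.64 and 5.42 CPM in the control libraries and at 3.11, 3.78 and 3.08 CPM in the Sev libraries. The groups did not overlap, and Sev replicate 2 was nearest to the controls. The mean fell from 4.97 ± 0.401 to 3.32 ± 0.397 CPM (SD, n = 3), a log2 fold change of -0.58 (standard error 0.16, 95% interval -0.96 to -0.20, adjusted p = 0.022). This call depended on single libraries. It was lost without control replicate 3 (adjusted p = 0.0798), without Sev replicate 1 (adjusted p = 0.0764) and without Sev replicate 3 (adjusted p = 0.0568), with log2 fold changes between -0.54 and -0.52. The call was kept without Sev replicate 2 (log2 fold change -0.68, adjusted p = 0.0178).

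GPX7 and GPX8, the cysteine-type peroxidases of the endoplasmic reticulum, were expressed at very different levels. GPX7 (chromosome 1, 52602372 to 52609051) had 8, 0 and 3 counts in the control libraries and 8, 4 and 0 in the Sev libraries. A change of GPX7 was not detectable at this depth. GPX8 (ENSG00000164294, chromosome 5, 55160118 to 55167071) was at 20.1, 23.1 and 19.98 CPM in the control libraries and at 10.1, 25.0 and 10.9 CPM in the Sev libraries. Sev replicates 1 and 3 were below every control library, and Sev replicate 2 was above them all. The log2 fold change was -0.46 (standard error 0.33, 95% interval -1.21 to 0.29, adjusted p = 0.287), and without Sev replicate 2 it was -0.9999 (adjusted p = 0.00181). The coefficient of variation of GPX8 in the Sev libraries, 54.7%, exceeded that of 98.2% of the features with a mean count of at least 100, whose median was 10.4%. In the control libraries it was 8.28%. The source of the difference between the Sev libraries was not tested.

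GSS, which adds glycine in the last step of glutathione synthesis, and GSR, which regenerates reduced glutathione, did not pass the test. GSS (ENSG00000100983, chromosome 20, 34928433 to 34956027, minus strand) was at 25.3, 39.5 and 30.8 CPM in the control libraries and at 29.2, 31.8 and 38.1 CPM in the Sev libraries, which overlapped. Its log2 fold change of 0.051 (standard error 0.17, 95% interval -0.35 to 0.45, adjusted p = 0.833) turned to -0.082 with library size only. GSR (ENSG00000104687, chromosome 8, 30678061 to 30727999, minus strand) was at 91.6, 102 and 99.6 CPM in the control libraries and at 121, 104 and 125 CPM in the Sev libraries. All 3 Sev values of GSR were above the controls, with the Sev replicate 2 value next to the highest control. The log2 fold change was 0.26 (standard error 0.094, 95% interval 0.037 to 0.47), which gave an adjusted p of 0.0592 in edgeR's quasi-likelihood test. Without Sev replicate 2 it was 0.33 (adjusted p = 0.02), and with library size only it was 0.12 (adjusted p = 0.385). The log2 ratio of GSR to GSS was 1.64 ± 0.24 (SD, n = 3) in control and 1.83 ± 0.19 (SD, n = 3) in Sev cells, an exact permutation p of 0.4 (adjusted p = 0.8).

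Both degrading enzymes were scarce, and of the 2 only GGT1 passed the test; the difference between them was not tested. CHAC2, a cytosolic enzyme that splits glutathione into 5-oxoproline and cysteinylglycine (ENSG00000143942, chromosome 2, 53767792 to 53775196), had 52 to 87 counts per library. It was at 1.89, 1.87 and 1.79 CPM in the control libraries and at 2.15, 1.38 and 1.84 CPM in the Sev libraries. The Sev values lay on both sides of the controls, and the log2 fold change was -0.045 (standard error 0.22, 95% interval -0.55 to 0.46, adjusted p = 0.883). It was 0.11 without Sev replicate 2.

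GGT1 (ENSG00000100031, chromosome 22, 24583750 to 24629005), the cell-surface gamma-glutamyltransferase that begins the breakdown of extracellular glutathione, was higher in Sev-treated cells. It was at 3.05, 3.26 and 2.20 CPM in the control libraries and at 6.61, 4.05 and 7.95 CPM in the Sev libraries. All Sev values were above the controls, and Sev replicate 2 was the nearest to them. The mean rose from 2.84 ± 0.557 to 6.20 ± 1.98 CPM (SD, n = 3), and the log2 fold change was 1.13 (standard error 0.28, 95% interval 0.49 to 1.77, adjusted p = 0.0127). Leaving out any 1 of the 6 libraries kept the call (adjusted p from 0.00365 to 0.0476), and the log2 fold change was 1.37 without Sev replicate 2. With limma on log2(FPKM + 1), which understates the change of low genes, it was 0.42 with an adjusted p of 0.0539. With limma on log2(FPKM + 0.1) it was 0.85, and the call was lost there too (adjusted p = 0.0552).

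The counts of GGT1 carry some uncertainty from its copies and its neighbour. The 9 listed GGT copies, pseudogenes and light-chain genes together held 1.53% to 5.15% of the counts summed over GGT1 and these copies in control cells and 4.26% to 7.88% in Sev-treated cells, where 6 of the 9 had no count in any library and the other 3 had at most 7. SNRPD3 overlaps GGT1 on the same strand over 306 bases, which is 6.90% of the exonic bases of GGT1. SNRPD3 had 2051, 2783 and 2964 counts in the control libraries and 3131, 2764 and 2989 in the Sev libraries. LRRC75B lies on the opposite strand with 0 exonic bases shared, and had at most 83 counts in a control library and at most 211 in a Sev library. How reads in the shared bases were assigned is not given in the sources used here, and their part in the value of GGT1 was not tested.

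**Figure D2:**
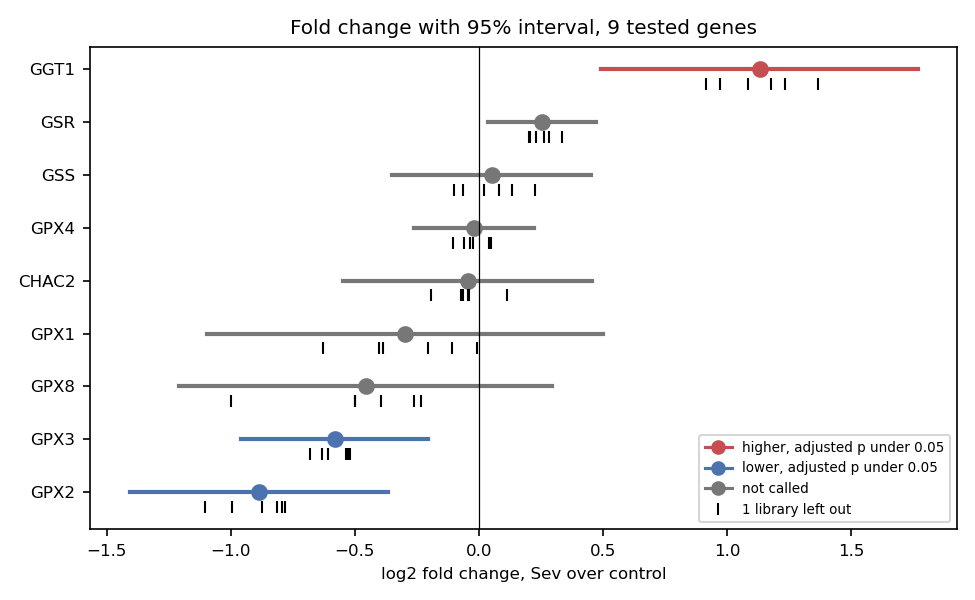
Log2 fold change (Sev over control) of the 9 tested genes, with the point for the edgeR estimate, the line for its 95% interval and black ticks for the 6 fits that each left out 1 library. GGT1 (1.13) is higher and GPX3 (-0.58) and GPX2 (-0.89) are lower at an adjusted p-value below 0.05, and the ticks of GPX8 reach from -0.9999 to -0.23.

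The order of the genes by level per length was similar in both groups. In the control libraries the mean FPKM was 39.8 for GPX1 and 39.3 for GPX4, which overlapped, then 23.1 for GSR. GSR (22.2 to 23.8) was apart from its neighbours GPX4 and GPX8 but lay within the range of GPX1 (19.2 to 54.1). GPX8 (4.40) and GSS (4.37) overlapped and were apart from GPX2 (1.86). GPX3 (1.33) and CHAC2 (1.20) overlapped, and GGT1 (0.530) and GPX7 (0.0376) were each apart from the gene above. In the Sev libraries GPX4 (35.1), GPX1 (29.3) and GSR (25.1) formed a run in which each overlapped the next. GSS (4.12) and GPX8 (2.87) also overlapped. The FPKM of GGT1 (1.08), CHAC2 (1.05), GPX2 (0.899) and GPX3 (0.799) overlapped from each to the next, so GGT1 stood among them and no longer below them. GPX7 stayed last at 0.0426.

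**Figure D3:**
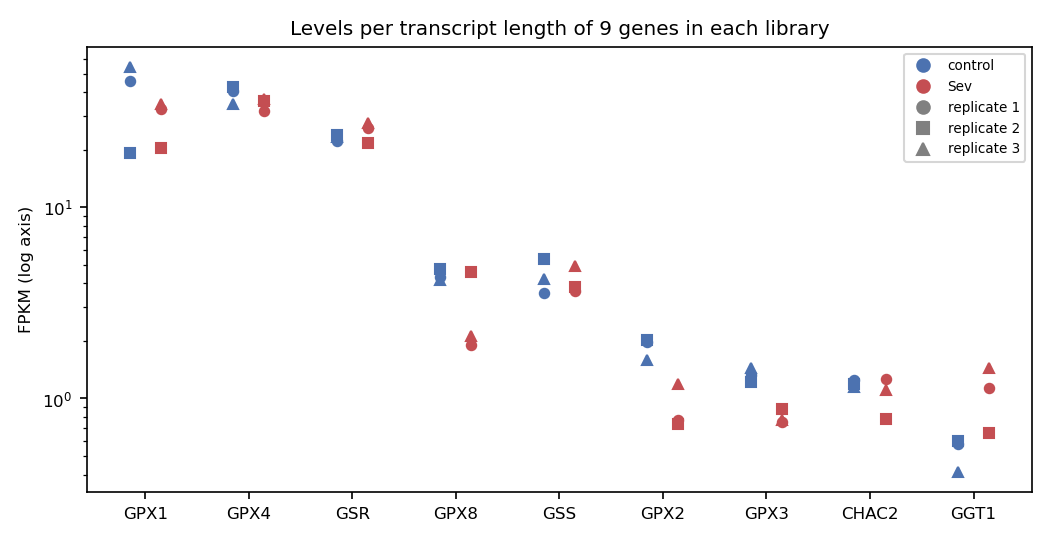
FPKM (log axis) of 9 of the 10 genes in each library, in the order of their control means, with control in blue, Sev in red and marker shape for the replicate number. GPX1, GPX4 and GSR lie between 19.2 and 54.1, and GGT1 moves from the lowest control values (0.412 to 0.601) to 0.659 to 1.44 in Sev; GPX7, with libraries at 0, is not drawn.

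The promoters of the 3 called genes are shown because the changes were measured at the transcript level, and they were searched for the cores of elements bound by NRF2 (TGACNNNGC, the antioxidant response element) and ATF4 (TGATGNAA, the composite element) on both strands. RefSeq (GRCh38.p14) promoters of 300 bases, 250 before and 50 after the start site, were found for 8 of the 10 genes, and GSS and GSR had no entry. The 250 bases before the start site are printed, on the strand of the gene, with matches in capitals.
GPX2, chr14:64942746-64942995, minus strand: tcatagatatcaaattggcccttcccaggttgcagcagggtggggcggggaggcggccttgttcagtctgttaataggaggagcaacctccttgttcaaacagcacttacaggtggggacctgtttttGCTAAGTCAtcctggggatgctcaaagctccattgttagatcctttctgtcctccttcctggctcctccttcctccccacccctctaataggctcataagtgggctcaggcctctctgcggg
GPX3, chr5:151020341-151020590, plus strand: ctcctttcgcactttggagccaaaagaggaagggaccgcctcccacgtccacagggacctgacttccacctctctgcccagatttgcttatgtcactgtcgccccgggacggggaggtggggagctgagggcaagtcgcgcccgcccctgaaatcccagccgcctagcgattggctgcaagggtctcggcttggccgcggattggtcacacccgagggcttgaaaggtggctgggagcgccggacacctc
GGT1, first start site, chr22:24583500-24583749, plus strand: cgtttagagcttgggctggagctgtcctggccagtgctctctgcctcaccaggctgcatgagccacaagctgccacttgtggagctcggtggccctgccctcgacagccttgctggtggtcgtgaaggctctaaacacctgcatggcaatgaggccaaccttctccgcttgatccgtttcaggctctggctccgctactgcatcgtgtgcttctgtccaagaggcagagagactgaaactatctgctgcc
GGT1, second start site, chr22:24602943-24603192, plus strand: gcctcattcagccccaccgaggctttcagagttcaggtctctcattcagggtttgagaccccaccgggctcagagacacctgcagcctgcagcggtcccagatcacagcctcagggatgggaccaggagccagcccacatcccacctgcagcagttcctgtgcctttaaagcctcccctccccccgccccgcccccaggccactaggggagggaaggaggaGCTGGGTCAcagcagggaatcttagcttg
The GPX2 promoter held 1 antioxidant core at -122 from the start site, and the second GGT1 promoter held 1 at -29, both on the opposite strand. No match was found in the GPX3 promoter or in the first GGT1 promoter. Among the other genes, GPX8 held 1 composite core at -189 on the opposite strand, and GPX1, GPX4, GPX7 and CHAC2 held neither. Of 35116 such promoters in the table, 13.3% held the antioxidant core and 3.62% held the composite core, so these matches are a description and not evidence of binding. The GGT1 match lay in the second promoter only, and the gene counts do not tell its start sites apart. Any part of these matches in the changes was not tested.

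Around these genes, 67 of 68 other listed genes of glutathione metabolism were in the tables and 54 were tested. Of the 54, 10 rose and 9 fell at an adjusted p-value below 0.05, beside the background of 43.7%, and their median log2 fold change was 0.0023. The 10 include DPEP2 and DPEP3, which passed the expression filter only through the Sev libraries. In glutathione synthesis and precursor supply, 3 of 6 genes rose and 0 fell, against 22.1% and 21.5% of all tested features, with a median log2 fold change of 0.47. GCLC, the catalytic subunit of the rate-limiting ligase, rose from 39.5 ± 0.153 to 65.1 ± 1.91 CPM (SD, n = 3), a log2 fold change of 0.72 (adjusted p = 0.000367). Its modifier subunit GCLM was at 50.7 ± 8.81 and 52.4 ± 5.25 CPM, a log2 fold change of 0.046 (adjusted p = 0.819) that turned to -0.095 with library size only. SLC7A11 and SLC3A2, the 2 chains of the cystine importer, rose with log2 fold changes of 0.57 (adjusted p = 0.00189) and 1.11 (adjusted p = 0.000609). The SLC3A2 mRNA was at 84.7 ± 16.0 CPM in control and 183 ± 6.07 CPM in Sev cells (SD, n = 3). Of this list, CTH and CBS of the transsulfuration pathway were not called (log2 fold changes 0.37 and -0.14).

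The list for the gamma-glutamyl cycle and glutathione breakdown held 11 genes (GGCT, GGT5, GGT6, GGT7, OPLAH, ANPEP, DPEP1, DPEP2, DPEP3, LAP3 and CNDP2) and does not cover every gene of that process, so its counts describe these 11 genes only. Of the 8 tested, 3 rose and 1 fell, against 22.1% and 21.5% of all tested features, but DPEP2 and DPEP3, 2 of the 3, passed the expression filter only through the Sev libraries, where they were high, so the number that rose carries no weight. With 10 counts required in every library neither was tested, and 2 genes of the list were called. LAP3, an aminopeptidase, rose with a log2 fold change of 0.44 (adjusted p = 0.00752). The dipeptidase genes were near the detection limit. DPEP3 was at 0 counts in each control library and at 26, 34 and 29 in the Sev libraries, at least 11.2-fold higher against a floor of 3 counts per library. DPEP2 had 3, 0 and 10 counts in the control and 22, 19 and 28 in the Sev libraries. GGT7, a relative of GGT1, moved the other way, with a log2 fold change of -0.35 (adjusted p = 0.0203). It was no longer called when control replicate 1 or 3 or Sev replicate 1 or 3 was left out (adjusted p from 0.0522 to 0.0816). GGCT, which converts gamma-glutamyl amino acids, was not called (log2 fold change 0.36, adjusted p = 0.122), and was called without control replicate 2 (0.53, adjusted p = 0.0359).

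Among NADPH suppliers, 5 genes were tested. The mitochondrial IDH2 had -0.29 (adjusted p = 0.0231), and lost its call without control replicate 1 (adjusted p = 0.0612), control replicate 3 (0.0702), Sev replicate 1 (0.0864) or Sev replicate 3 (0.0626). Of 9 glutaredoxin, glyoxalase and transport genes, 2 rose and 1 fell, against 43.7% of all tested features called in either direction. GLRX5, of mitochondrial iron-sulfur cluster assembly, rose with a log2 fold change of 0.54 (adjusted p = 0.00312). GLRX3 had 0.36 (adjusted p = 0.0285) and lost its call without control replicate 1 (adjusted p = 0.0708), control replicate 3 (0.0597), Sev replicate 1 (0.0914) or Sev replicate 3 (0.0799), and with library size only (0.133). It was also not called with no expression filter (adjusted p = 0.0607) or on the FPKM scale (adjusted p from 0.134 to 0.195). SLC25A40, a mitochondrial carrier related to the glutathione importer SLC25A39, fell by 0.78 on the log2 scale (adjusted p = 0.00222).

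Of 17 tested glutathione transferase genes, which conjugate glutathione to electrophiles, 1 rose and 5 fell, against 22.1% and 21.5% of all tested features, and the median log2 fold change was -0.26. GSTP1 had a log2 fold change of 0.40 (adjusted p = 0.0146), and lost its call without Sev replicate 1 (0.38, adjusted p = 0.0557) and with library size only (0.26, adjusted p = 0.0508). On the FPKM scale it was not called (adjusted p from 0.0524 to 0.0910). GSTCD (-0.80, adjusted p = 0.0037) and GSTK1 (-0.34, adjusted p = 0.00974) fell. GSTT2B also fell (-0.97, adjusted p = 0.00366), with the near-identical GSTT2 at 0 to 25 counts, so its value is uncertain. Of 9 tested genes for selenoprotein synthesis, only SEPSECS, which makes selenocysteine on its tRNA, was called, against 43.7% of all tested features. It fell from 15.3 ± 2.44 to 7.34 ± 1.49 CPM (SD, n = 3), a log2 fold change of -1.06 (adjusted p = 0.00311), and SECISBP2, which binds the SECIS element of selenoprotein mRNAs, was at -0.077 (adjusted p = 0.471).

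**Figure D4:**
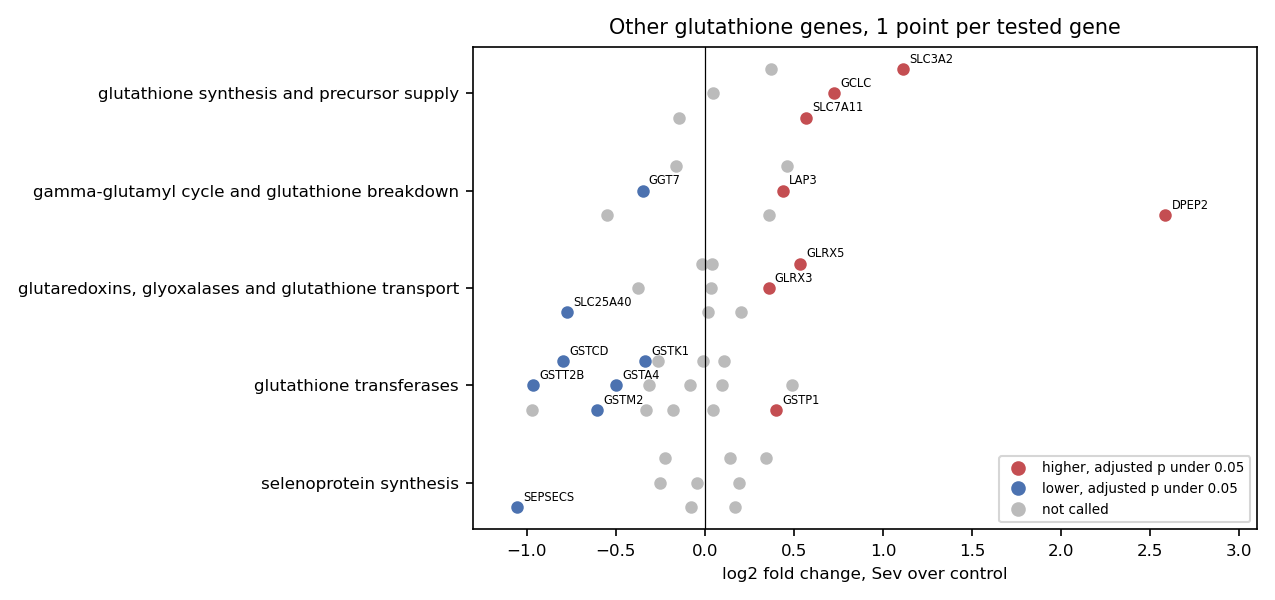
Log2 fold change (Sev over control) of the 48 tested genes of 5 other glutathione lists that had a count in a control library, 1 row per list (NADPH supply is not drawn), in red for higher, blue for lower and grey for not called (vertical offsets only separate points). SLC3A2 (1.11), GCLC (0.72) and SLC7A11 (0.57) stand to the right in the synthesis list, and 5 of the 17 transferases stand to the left in blue. DPEP2 (2.59, in red in the breakdown list) passed the expression filter only through the Sev libraries, so its point carries no weight.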

How the data were processed

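RNA of U251 cells, depleted of ribosomal RNA, was sequenced from strand-specific paired-end libraries, 3 control and 3 Sev. The authors deposited raw counts per gene and FPKM values for the same features. Within each feature, FPKM values followed the counts. After the mean of each feature over the 6 libraries was taken off, log2 FPKM per count had an SD of at most 0.00238 within a library. The submitters' processing notes name bcl2fastq 2.19, featureCounts and hg18, without roles. The aligner and annotation are not given in the sources used here. Positions are those of GENCODE 29 (GRCh38), joined by Ensembl identifier. Symbols were matched for 60295 features.

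Counts were filtered with filterByExpr, TMM-normalized and tested in edgeR 4.0.16 (R 4.3.3) with glmQLFit and glmQLFTest, 2 groups and no covariate. CPM values hold no prior count. Standard errors are the absolute log2 fold change over the square root of F. Adjustment was by Benjamini-Hochberg over 27514 features, with a limit of 0.05. Alternatives were DESeq2 1.42.0 (size factors or Wald test), library size only, no filter, 10 counts in every library, a replicate block, each library left out, and limma 3.58.1 on log2(FPKM + 1) or log2(FPKM + 0.1), keeping features that reached an FPKM of 0.5 in 3 libraries, and on log2(FPKM + 1) also unfiltered. Ratios were tested with exact permutation tests in scipy 1.17.1. GPX7 to GPX8 was not computed because GPX7 had libraries at 0. Models were tested on simulated data. Genes named were the 10 genes, up to 4 called genes per list by smallest p, and GCLC, GCLM, GGCT and SLC7A11. Copies of GGT1 and GPX1, overlapping genes and the 5 profiles most like that of GGT1 were named by rule. CTH, CBS, SECISBP2 and GSTT2 were named after their values were seen. A gene that this rule names is not reported here. The catalytic codon pattern was widened by 1 residue so that it also found GPX8. The genes and lists were chosen with earlier results of these data known. Intervals cover the spread between libraries, and floors cover counting error only.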

Additional observations from a re-analysis of the deposited data

How the results depend on the processing

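No alternative reversed a called gene named in the text. Over all tested features, 3676 and 3623 were higher by adjusted p with limma on log2(FPKM + 1) and log2(FPKM + 0.1), against 6094. By the study's threshold, against 3147 higher and 3315 lower, there were 1691 and 2148 with 10 counts in every library, 579 and 690 on log2(FPKM + 1), 579 and 691 without the FPKM filter, and 1476 higher on log2(FPKM + 0.1). GGT1 lost its call on the 3 FPKM settings, at 0.42, 0.85 and 0.42 (adjusted p = 0.0539, 0.0552 and 0.116), which left 0 of the 10 genes higher. GSS turned to -0.082 with library size only and to -0.064, -0.076 and -0.064 on FPKM, and GCLM to -0.095, -0.079, -0.087 and -0.079. Called genes of the breakdown list were 2 with 10 counts in every library and 2 with each filtered FPKM setting, those of NADPH supply were 1 with no filter, and those of selenoprotein synthesis were 2 with library size only and with each filtered FPKM setting.

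Same-numbered libraries did not deviate together (correlations from -0.0072 to 0.027 over 27514 features). No pairing by number was seen in these values, which cannot show whether the libraries were prepared in pairs. With the replicate block GPX3 was at -0.58 (adjusted p = 0.0552), leaving 1 of the 10 genes lower and 1 called NADPH gene. It also ended the calls of GGT7, IDH2 and GLRX3, and of no other named gene.

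With 1 library left out, 1 to 2 of the 10 genes were higher and 0 to 3 lower. Called genes ran from 2 to 6 in the breakdown list, 0 to 2 for NADPH, 3 to 6 for transferases and 1 to 2 for selenoprotein synthesis. The log2 fold change ran from -1.10 to -0.78 for GPX2, -0.68 to -0.52 for GPX3, -0.11 to 0.049 for GPX4, -0.9999 to -0.23 for GPX8, -0.099 to 0.23 for GSS, 0.20 to 0.33 for GSR, -0.19 to 0.11 for CHAC2 and -0.097 to 0.14 for GCLM. The change in the GPX1 to GPX4 ratio ran from -0.70 to 0.19. Counts of 52 to 315 limit the precision for GPX2, GPX3, CHAC2 and GGT1.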

Other observations

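The expression profile of GGT1 over the 6 libraries, on log2(CPM + 0.5), was most like those of GRIN3A, LINC02576, APIP, SNORD46 and LINC02989, with Pearson correlations of 0.999, 0.995, 0.995, 0.994 and 0.993. These correlations describe 6 libraries in 2 groups and share their treatment difference. GRIN3A, a glutamate receptor subunit gene, was at 5.15, 5.22 and 4.45 CPM in the control libraries and at 7.03, 5.75 and 7.82 CPM in the Sev libraries, so that it, like GGT1, was lowest among the Sev libraries in Sev replicate 2. APIP, an enzyme of the methionine salvage pathway, was at 4.70, 4.85 and 4.10 CPM in the control libraries and at 6.69, 5.14 and 6.89 CPM in the Sev libraries.

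The remaining peroxidase genes, GPX5 and GPX6, had at most 4 and 7 counts in a library and were not tested. Of the 13 further features whose symbols begin with GGT or GPX, 8 had no count in any library. GGTA1 and GGTA2P among them share only the letters and belong to a galactosyltransferase family.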
